A study of Homo sapiens with 16 samples.

Results

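The genes described here are 10 genes of the ATF4, CHOP and XBP1 stress response, chosen by name with earlier results of these data known. They are the transcription factor genes ATF4, DDIT3 (which encodes CHOP), CEBPB, ATF3 and XBP1, and the effector genes TRIB3, SESN2, ASNS, CHAC1 and HERPUD1. All 10 were found among the 20282 genes measured, with 16 probe sets between them, and each gene's value is the mean of the probe sets that carry exactly its symbol. RNA was measured on Affymetrix arrays, 1 per tumour, in 16 subcutaneous xenografts of the human prostate cancer cell line PC-3, grown from 1000000 injected cells in 5-week-old female nude mice of BALB/c background until they reached at least 5 mm across. LhTERTL tumours have long telomeres and an exogenous copy of hTERT, the catalytic protein of telomerase, and mock tumours have short telomeres and no exogenous hTERT. LhTERTL/cre+ tumours have long telomeres with the exogenous hTERT absent, and mock/cre+ tumours have short telomeres with exogenous hTERT absent; the cre+ in both names points to the Cre recombinase, which the labels do not describe further. No tumour was treated, and each group of 4 independent tumours comes from 1 line, so telomere length and any other difference between lines cannot be told apart and every p-value rests on how tumours of 1 line vary.

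ATF4 is a transcription factor whose protein is made when kinases that sense stress, such as PERK in the endoplasmic reticulum (ER), phosphorylate the translation factor eIF2. It pairs with C/EBP proteins such as CEBPB at a shared DNA element, and its targets include amino acid genes such as ASNS, the pseudokinase gene TRIB3 and DDIT3. XBP1 belongs to another arm of the ER stress response, in which the sensor IRE1 splices the XBP1 transcript and the resulting factor raises genes for protein folding and disposal. Neither the translation of ATF4 nor the splicing of XBP1 is read by the values used here, which are amounts of transcript.

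The 300-base RefSeq windows around the annotated starts (250 bases before to 50 after, GRCh38.p14) show which of these genes carry the DNA elements of the pathway near their start; 18 windows covered all 10 genes. The C/EBP-ATF response element was searched on both strands as TGATGNAA, which 3.62% of all 35116 windows hold. It was found in 4 of the 10 genes, ATF3 191 bases before the start, ASNS 68 bases before, CHAC1 209 bases before and HERPUD1 176 bases before, the last pair on the opposite strand. The ER stress element, CCAAT and CCACG held apart by 9 bases, is in 0.0769% of all windows and was found in XBP1, beginning 52 bases before its start. TTGCNNAA, a C/EBP motif that 10.5% of windows hold, was found in SESN2 221 bases before the start and in an ATF3 window of a second start, and TGACGTNA, the cyclic AMP response element present in 3.01% of windows, in none of the 18. No match overlapped another, and a match describes letters, not binding. The stretches lie at chr1:212565180-212565259 (ATF3, plus strand), chr7:97872433-97872512 (ASNS, minus strand), chr15:40953226-40953305 (CHAC1, plus strand), chr16:56931930-56932009 (HERPUD1, plus strand), chr22:28800567-28800657 (XBP1, minus strand) and chr1:28259268-28259340 (SESN2, plus strand). They are printed 5′ to 3′ along the gene, with the motif in capitals.
ATF3: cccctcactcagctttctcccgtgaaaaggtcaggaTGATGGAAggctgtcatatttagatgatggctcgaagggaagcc
ASNS: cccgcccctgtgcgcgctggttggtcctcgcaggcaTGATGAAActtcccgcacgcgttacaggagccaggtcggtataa
CHAC1: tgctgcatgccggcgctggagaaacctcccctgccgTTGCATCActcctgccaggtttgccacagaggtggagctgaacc
HERPUD1: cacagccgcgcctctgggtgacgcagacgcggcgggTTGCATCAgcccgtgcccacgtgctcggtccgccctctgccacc
XBP1: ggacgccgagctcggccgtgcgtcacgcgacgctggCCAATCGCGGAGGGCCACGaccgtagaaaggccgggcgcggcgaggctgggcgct
SESN2: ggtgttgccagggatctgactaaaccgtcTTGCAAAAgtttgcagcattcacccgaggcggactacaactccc
TRIB3 differed between long- and short-telomere tumours by the same amount in both pairs of lines, as described further on, and none of its 3 windows held any of the 4 motifs, nor did those of DDIT3, CEBPB and ATF4. The annotated TRIB3 gene begins at chr20:380760, upstream of its 3 windows, and that start was not searched. ASNS, on the minus strand, likewise reaches chr7:97928441, beyond its windows. The first TRIB3 window, chr20:381045-381344 on the plus strand, is shown as the letters in which no match was found.
TRIB3: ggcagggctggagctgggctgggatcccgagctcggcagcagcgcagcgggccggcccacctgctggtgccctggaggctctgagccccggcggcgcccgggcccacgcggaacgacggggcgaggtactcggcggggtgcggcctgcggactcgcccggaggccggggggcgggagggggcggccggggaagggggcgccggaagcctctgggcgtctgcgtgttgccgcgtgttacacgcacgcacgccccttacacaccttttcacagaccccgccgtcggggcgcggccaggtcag

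Between tumours with long and short telomeres, 6 of the 10 genes were lower in the long-telomere tumours and none was higher: TRIB3, CEBPB, DDIT3, ATF4, XBP1 and SESN2, by 0.29 to 0.76 on the log2 scale. This comparison averages LhTERTL against mock and LhTERTL/cre+ against mock/cre+. Over all 20282 genes, 14.1% were called lower and 18.5% higher in it at an adjusted p under 0.05, the limit used throughout (limma, Benjamini-Hochberg over all genes, two-sided). The median of the 10 log2 differences was -0.31, beside 0.02 over all genes. In LhTERTL against mock 3 of 10 were lower, TRIB3, DDIT3 and CEBPB, where 7.99% of all genes were lower and 12.3% higher. In LhTERTL/cre+ against mock/cre+ 8 of 10 were lower, all but ATF3 and HERPUD1, where 13% of all genes were lower and 15% higher. The medians of the 10 genes were -0.10 and -0.45 in these pairs, beside 0.01 and 0.02 over all genes. Since the 10 genes were chosen with earlier results of these data known, the shares over all genes are a background and not a test.

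Values are log2 signals from which each probe set's own median was subtracted, so they hold differences between tumours and no level, and the labelled cell type could not be checked against its markers. The exogenous hTERT could be: 1 of 2 probe sets of TERT stood at 2.82 to 3.41 in the 4 LhTERTL tumours and between -0.57 and 0.30 in the other 12, while the other gave -0.58 for LhTERTL minus mock (adjusted p = 0.0181). Array LhTERTL/cre+ 4 stands apart. Over all genes it correlated at 0.08 to 0.21 with the other arrays of its line, which correlated at 0.50 to 0.65 among themselves, so calls that change when it is left out are given both ways. Array mock 3 correlated at 0.51 with an array of another line, above its highest value within its own line, 0.49. LhTERTL 3 and LhTERTL/cre+ 1 each reached 0.56 with an array of another line. These arrays and mock/cre+ 1 had the highest signal of the poly-A controls, added before labelling (1.23, 1.69, 1.84 and 1.23). A fit with high and low classes of that signal as a block is among the alternatives at the end. The log2 ratio of 3′ to 5′ signal of the control probe sets for beta-actin and GAPDH, a sign of RNA quality, averaged -0.07 ± 0.21 in LhTERTL/cre+ and 0.64 ± 0.39 in mock/cre+ tumours (SD, n = 4 each; difference -0.71, two-sided exact permutation p = 0.0286, the least possible with 4 against 4, adjusted p = 0.0476 over 5 comparisons). It was -0.08 ± 0.15 in LhTERTL and 0.07 ± 0.18 in mock tumours. Of 68 measured marker genes of 9 cell types, PC-3 itself included, 9 were higher and 3 lower in long-telomere tumours, beside 18.5% and 14.1% of all genes, and the mean of the centred values of a cell type's markers stayed between -0.34 and 0.25 in every tumour. The probe sets are for human genes and the host cells are from mice, so these values do not measure the host cells in a tumour. The 8 epithelial markers of PC-3 averaged 0.05 to 0.17 in LhTERTL and -0.34 to -0.11 in mock tumours. Of the 7 markers of plasma cells, a cell type known for high XBP1, SDC1, which epithelial cells also express, was the only one called in LhTERTL/cre+ against mock/cre+ (1.56), and the other 6 gave -0.07 to 0.17. What part such cells have in the results was not tested, and fewer cells of a type cannot be told apart from less RNA per cell.

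**Figure D1:**
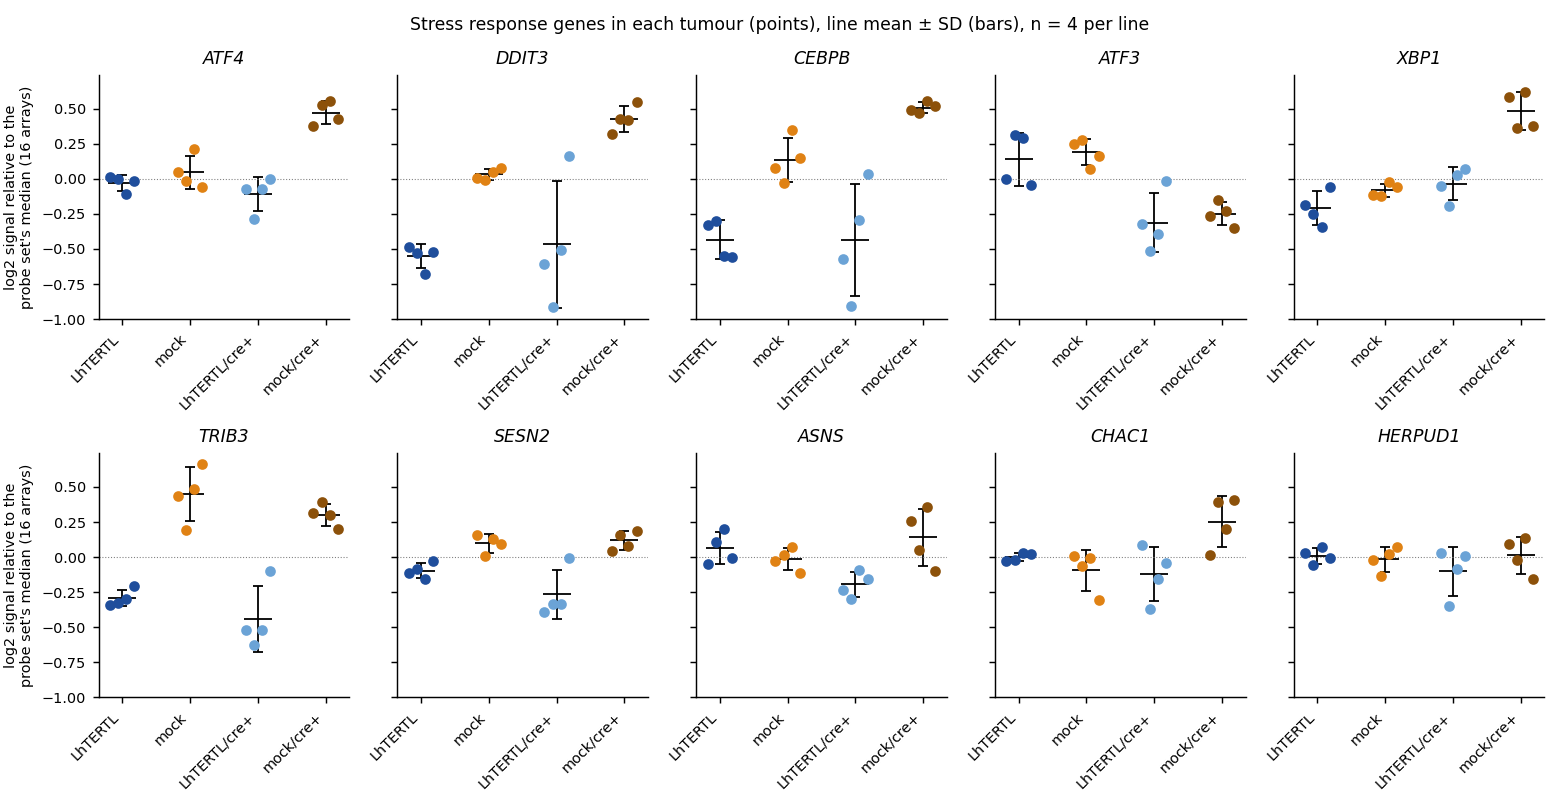
Log2 signal of the 10 stress response genes in each of the 16 tumours, relative to each probe set's median (y axis), with the mean ± SD of each line of 4 tumours (x axis). TRIB3 and SESN2 are the genes in which all 8 long-telomere tumours lie below all 8 short-telomere tumours, and ATF4, XBP1, DDIT3 and CEBPB are highest in mock/cre+.

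ATF4, the factor that gives the response its name, was lower in long-telomere tumours of the Cre pair and was highest in mock/cre+. It read 0.01, 0.00, -0.11 and -0.02 in LhTERTL tumours and 0.05, -0.02, 0.21 and -0.06 in mock tumours. In the Cre lines it read -0.07, -0.29, -0.07 and 0.00 in LhTERTL/cre+ tumours and 0.38, 0.53, 0.56 and 0.42 in mock/cre+ tumours. All 4 mock/cre+ tumours thus lay above the other 12, while the remaining 3 lines overlapped. LhTERTL/cre+ minus mock/cre+ was -0.58 ± 0.08 (SE, n = 4 each, adjusted p = 2.32e-05), against -0.07 ± 0.08 for LhTERTL minus mock (adjusted p = 0.577). The difference between these 2 contrasts was itself -0.51 ± 0.11 (adjusted p = 0.00564). In the average of both pairs ATF4 fell by 0.33 (adjusted p = 0.000131). Without the 4 mock/cre+ arrays, where both long-telomere lines are set against mock alone, the difference was -0.11 (adjusted p = 0.267).

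DDIT3 encodes CHOP, a factor of the C/EBP family that ATF4 induces and that is known for promoting cell death under lasting stress. It read -0.48, -0.53, -0.68 and -0.52 in LhTERTL tumours and 0.01, -0.01, 0.05 and 0.08 in mock tumours. It read -0.61, -0.92, -0.50 and 0.16 in LhTERTL/cre+ tumours and 0.32, 0.43, 0.42 and 0.55 in mock/cre+ tumours. Neither pair overlapped, and LhTERTL/cre+ 4 was the only long-telomere tumour above the mock tumours. LhTERTL minus mock was -0.58 ± 0.15 (SE, n = 4 each, adjusted p = 0.00880), and LhTERTL/cre+ minus mock/cre+ was -0.90 ± 0.15 (adjusted p = 0.000201), a 1.86-fold difference. Without LhTERTL/cre+ 4 the difference in the Cre pair was -1.10.

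CEBPB, a C/EBP factor that pairs with ATF4, followed DDIT3 closely. It read -0.33, -0.30, -0.55 and -0.56 in LhTERTL tumours and 0.08, -0.03, 0.35 and 0.15 in mock tumours. It read -0.58, -0.90, -0.30 and 0.03 in LhTERTL/cre+ tumours and 0.49, 0.47, 0.55 and 0.52 in mock/cre+ tumours. The groups of each pair did not overlap, and the mock/cre+ tumours lay close together. The difference was -0.57 ± 0.14 for LhTERTL minus mock (SE, n = 4 each, adjusted p = 0.00816) and -0.94 ± 0.14 for LhTERTL/cre+ minus mock/cre+ (adjusted p = 8.97e-05). Across the 16 arrays its correlation with DDIT3 was the highest of the 45 pairs among the 10 genes, Pearson's r 0.97, and 0.87 after the line means were removed. These arrays share 4 lines, so the values describe them only.

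ATF3, a repressor and activator induced by many stresses, was not called in either telomere pair but was lower in both Cre lines. It read 0.00, 0.31, 0.29 and -0.05 in LhTERTL tumours and 0.25, 0.28, 0.07 and 0.17 in mock tumours. It read -0.32, -0.51, -0.39 and -0.02 in LhTERTL/cre+ tumours and -0.27, -0.15, -0.23 and -0.35 in mock/cre+ tumours. The lines of each telomere pair overlapped, with differences of -0.05 ± 0.10 (adjusted p = 0.802) and -0.06 ± 0.10 (adjusted p = 0.728). ATF3 fell by 0.45 ± 0.10 in LhTERTL/cre+ against LhTERTL (adjusted p = 0.0226) and by 0.44 ± 0.10 in mock/cre+ against mock (SE, n = 4 each, adjusted p = 0.00566). Its 3 probe sets disagree. Probe set 202672_s_at gave -1.12 and -0.84 in these comparisons and 1554980_a_at gave -0.38 and -0.39, whereas 1554420_at gave 0.15 and -0.09, neither called. The first call ended without LhTERTL 2 or 3 or without LhTERTL/cre+ 2 or 3, where the adjusted p reached 0.0955, and the second ended with the 3′ to 5′ ratio as a covariate (-0.44, adjusted p = 0.0702).

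XBP1, the factor of the IRE1 arm, was highest in mock/cre+, as ATF4 was. It read -0.18, -0.25, -0.35 and -0.06 in LhTERTL tumours and -0.12, -0.13, -0.03 and -0.06 in mock tumours. It read -0.05, -0.20, 0.03 and 0.07 in LhTERTL/cre+ tumours and 0.58, 0.36, 0.62 and 0.37 in mock/cre+ tumours. The mock/cre+ tumours again lay above the other 12. LhTERTL/cre+ minus mock/cre+ was -0.52 ± 0.08 (SE, n = 4 each, adjusted p = 0.000120), and LhTERTL minus mock was -0.13 ± 0.08 (adjusted p = 0.317). The contrasts differed by -0.39 ± 0.11 (adjusted p = 0.0359), a call lost in 9 of 16 fits that left out 1 array. Its 2 probe sets differ: in the Cre pair 200670_at gave -0.71 (adjusted p = 0.000423) and 242021_at -0.33 (adjusted p = 0.0800), and for the difference between contrasts they gave -0.77 (adjusted p = 0.0112) and -0.01 (adjusted p = 0.988). Without the 4 mock/cre+ arrays XBP1 differed by -0.04 (adjusted p = 0.747) between long and short telomeres.

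**Figure D2:**
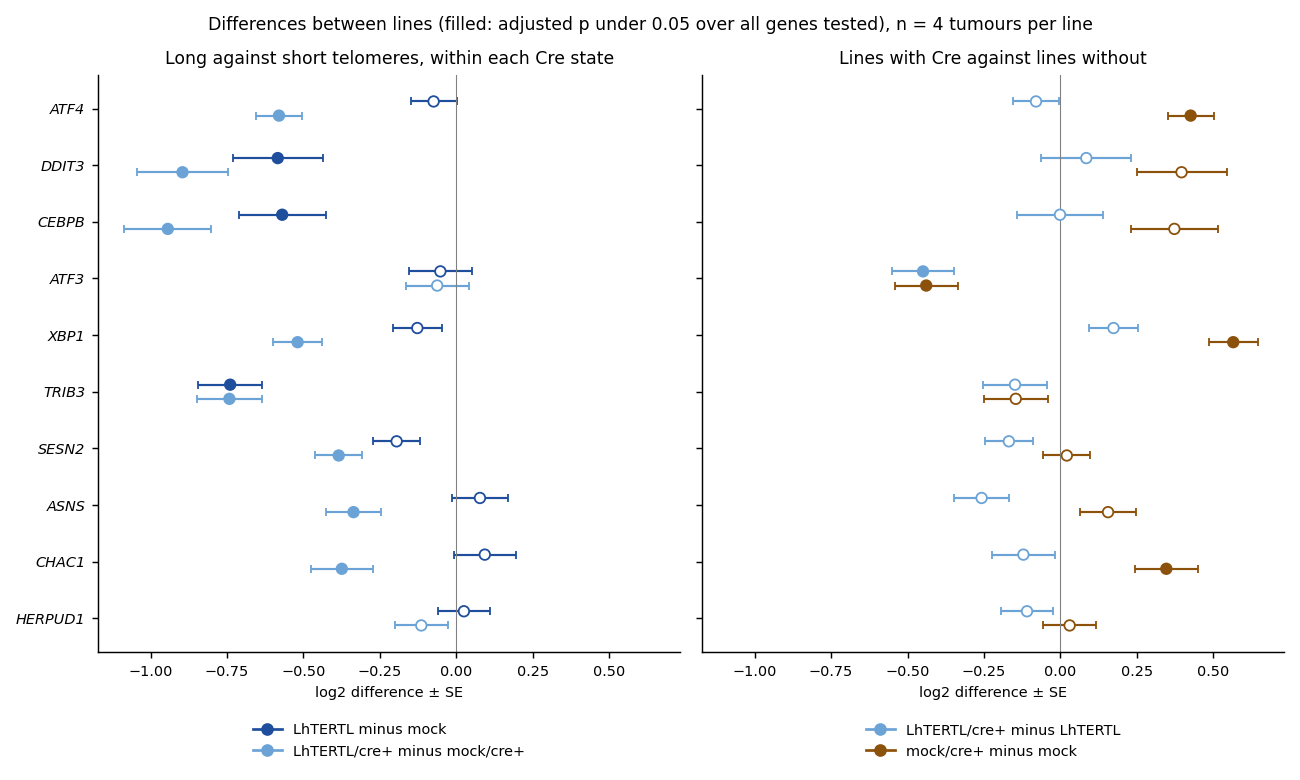
Log2 differences ± SE of the 10 genes (x axis) between lines of 4 tumours, on the left for long against short telomeres within each Cre state and on the right for lines with Cre against lines without, with filled points where the adjusted p was under 0.05. TRIB3 differs by -0.74 in both telomere pairs, while ATF4 and XBP1 differ in the Cre pair and in mock/cre+ against mock.

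Among the effectors, TRIB3, a pseudokinase that is a target of ATF4 and CHOP and feeds back on them, gave the same difference in both telomere pairs. It read -0.34, -0.33, -0.30 and -0.21 in LhTERTL tumours and 0.44, 0.20, 0.49 and 0.66 in mock tumours. It read -0.52, -0.63, -0.52 and -0.10 in LhTERTL/cre+ tumours and 0.31, 0.39, 0.30 and 0.20 in mock/cre+ tumours. Every long-telomere tumour lay below 0 and every short-telomere tumour above it. The difference was -0.74 ± 0.11 in LhTERTL against mock (SE, n = 4 each, adjusted p = 0.000105) and -0.74 ± 0.11 in LhTERTL/cre+ against mock/cre+ (adjusted p = 5.22e-05), a 1.67-fold change over both pairs. The contrasts differed by 0.00 ± 0.15 (adjusted p = 0.995). Both probe sets were called in each pair, 218145_at at -0.93 and -1.01 and 1555788_a_at at -0.55 and -0.48. With the 3′ to 5′ ratio as a covariate, the difference in the Cre pair was -0.74 (adjusted p = 0.00680), and without the 4 mock/cre+ arrays long minus short was -0.81 (adjusted p = 7.65e-05).

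SESN2, a sestrin that restrains mTORC1 when leucine is scarce and is induced by ATF4, had smaller differences in the same direction. It read -0.11, -0.09, -0.16 and -0.03 in LhTERTL tumours and 0.16, 0.01, 0.13 and 0.09 in mock tumours. It read -0.39, -0.33, -0.33 and 0.00 in LhTERTL/cre+ tumours and 0.04, 0.16, 0.08 and 0.19 in mock/cre+ tumours. The 8 long-telomere tumours lay below the 8 short-telomere tumours, with LhTERTL/cre+ 4 nearest to them. SESN2 fell by 0.29 ± 0.05 over both pairs (SE, adjusted p = 0.000509) and by 0.38 ± 0.08 in LhTERTL/cre+ against mock/cre+ (n = 4 each, adjusted p = 0.00112); LhTERTL minus mock was -0.20 ± 0.08 (adjusted p = 0.0883), which passed without LhTERTL/cre+ 4 (adjusted p = 0.0259). In the Cre pair the call ended with the 3′ to 5′ ratio as a covariate (-0.35, adjusted p = 0.0589). Across the 16 arrays SESN2 and TRIB3 correlated at 0.90, and at 0.71 after the line means were removed.

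ASNS, asparagine synthetase, and CHAC1, which degrades glutathione, were called only where mock/cre+ was in the comparison. ASNS read -0.05, 0.11, 0.20 and -0.01 in LhTERTL tumours, against -0.03, 0.01, 0.07 and -0.11 in mock tumours. It read -0.24, -0.30, -0.09 and -0.15 in LhTERTL/cre+ tumours, against 0.25, 0.05, 0.36 and -0.10 in mock/cre+ tumours. Both pairs overlapped, the second because mock/cre+ 4 lay among the LhTERTL/cre+ tumours. ASNS fell by 0.34 ± 0.09 in LhTERTL/cre+ against mock/cre+ (SE, n = 4 each, adjusted p = 0.00946) and differed by 0.08 ± 0.09 in LhTERTL against mock (adjusted p = 0.643). Of its 2 probe sets, 205047_s_at gave -0.50 in the Cre pair (adjusted p = 0.00356) and 241082_at -0.17 (adjusted p = 0.352).

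CHAC1 read -0.03, -0.02, 0.03 and 0.02 in LhTERTL tumours, against 0.01, -0.07, -0.01 and -0.31 in mock tumours. It read 0.09, -0.37, -0.16 and -0.04 in LhTERTL/cre+ tumours, against 0.02, 0.39, 0.20 and 0.41 in mock/cre+ tumours. The first 2 lines overlapped, and so did the Cre lines, through LhTERTL/cre+ 1 and mock/cre+ 1. CHAC1 fell by 0.37 ± 0.10 in LhTERTL/cre+ against mock/cre+ (SE, n = 4 each, adjusted p = 0.00999), with a difference of 0.09 ± 0.10 in LhTERTL against mock (adjusted p = 0.613). Beside it stands the 3′ to 5′ ratio, which was high in mock/cre+: with that ratio as a covariate the CHAC1 difference in the Cre pair was -0.12 (adjusted p = 0.603).

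HERPUD1, an ER membrane protein of the machinery that disposes of misfolded proteins, passed the limit in none of the 6 comparisons, nor at an unadjusted p under 0.05 (lowest limma p 0.200). It ranged from -0.06 to 0.07 in LhTERTL tumours and from -0.13 to 0.07 in mock tumours. It ranged from -0.35 to 0.03 in LhTERTL/cre+ tumours and from -0.16 to 0.14 in mock/cre+ tumours. All 4 lines overlapped, and the differences were 0.02 ± 0.09 in LhTERTL against mock (adjusted p = 0.894) and -0.11 ± 0.09 in LhTERTL/cre+ against mock/cre+ (SE, n = 4 each, adjusted p = 0.379).

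In mock/cre+ against mock, both with short telomeres and no exogenous hTERT, 3 of the 10 genes were higher and 1 lower, where 9% of all genes were higher and 10% lower. ATF4 rose by 0.43 ± 0.08 (SE, n = 4 each, adjusted p = 0.000756), XBP1 by 0.56 ± 0.08 (adjusted p = 0.000124), a 1.48-fold difference that probe set 242021_at alone did not pass (0.39, adjusted p = 0.0520), and CHAC1 by 0.35 ± 0.10 (adjusted p = 0.0236), while ATF3 fell as given above. The share of all genes without overlap in this comparison was not counted. In ATF4, XBP1 and CHAC1 the mock/cre+ tumours did not overlap the mock tumours, narrowly for CHAC1 (0.02 in mock/cre+ 1, 0.01 in mock 1). DDIT3 and CEBPB did not overlap either and were higher by 0.40 (adjusted p = 0.0711) and 0.37 (adjusted p = 0.0787), which passed the limit without LhTERTL/cre+ 4 (adjusted p = 0.00231 for DDIT3 and 0.0231 for CEBPB), an array that enters through the shared estimate of spread. The 3′ to 5′ ratio differed here too, by 0.57 (exact permutation p = 0.0286, adjusted p = 0.0476). With it as a covariate XBP1 (0.63, adjusted p = 0.00289) and ATF4 (0.40, adjusted p = 0.0264) were still called and CHAC1 was not (0.15, adjusted p = 0.533). The CHAC1 call also ended without mock 4, mock/cre+ 2 or mock/cre+ 4, where the difference was 0.27, 0.30 and 0.29 (adjusted p = 0.0942, 0.0717 and 0.0787).

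In LhTERTL/cre+ against LhTERTL, which differ in the exogenous hTERT and in Cre, ATF3 was lower and the other 9 genes were not called, where 2.32% of all genes were lower. Without LhTERTL/cre+ 4 the count was 2, SESN2 at -0.26 (adjusted p = 0.0281) and ATF3 at -0.55 (adjusted p = 0.00286). The difference between the telomere contrasts was below 0 and called in 4 of the 10 genes, ATF4, XBP1, ASNS (-0.41 ± 0.13, adjusted p = 0.0484) and CHAC1 (-0.47 ± 0.14, SE, adjusted p = 0.0470), where 5.63% of all genes were called in that direction. These comparisons share arrays with one another, so their calls are not independent. When 1 array at a time was left out, the count ran from 1 to 7 (ATF4 in all 16 fits), with 7 called without LhTERTL/cre+ 4, where DDIT3 (-0.52, adjusted p = 0.00841), CEBPB (-0.53, adjusted p = 0.0391) and SESN2 (-0.28, adjusted p = 0.0456) joined. For fits without 1 array the share of all genes called was not counted. The shares of 2.32% and 5.63% belong to all 16 arrays and are no background for those counts.

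**Figure D3:**
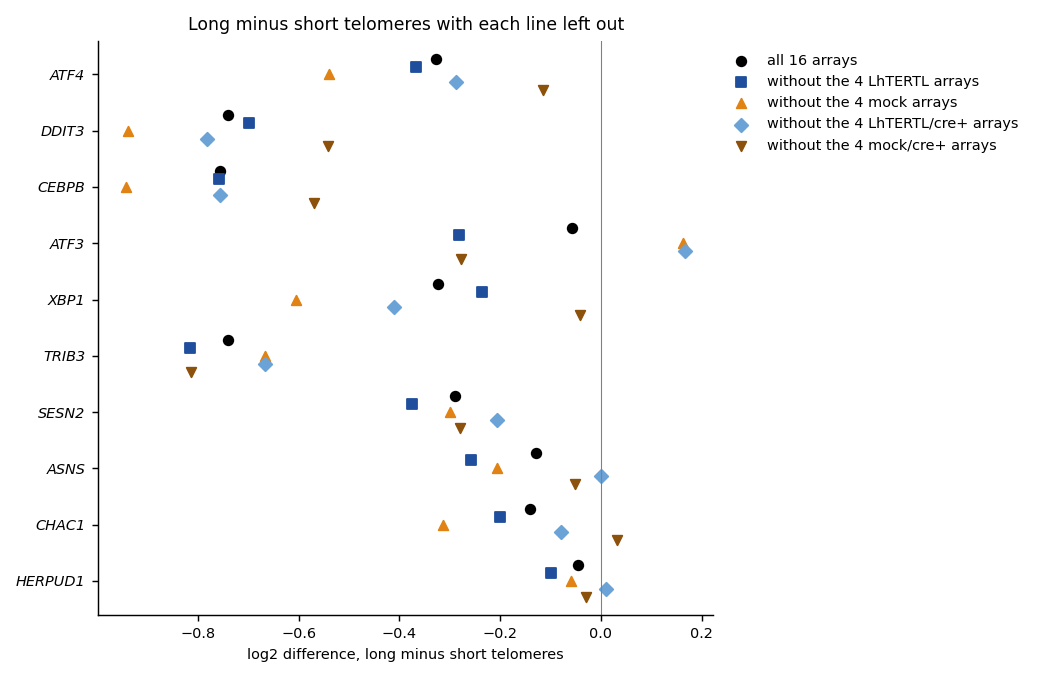
Log2 difference between long- and short-telomere tumours (x axis) for each of the 10 genes with all 16 arrays and with the 4 arrays of each line left out in turn (colour and marker). TRIB3 stays between -0.82 and -0.67, while ATF4 and XBP1 come to -0.11 and -0.04 without mock/cre+.

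Leaving out whole lines shows which genes rest on which line in the average of long minus short telomeres. The remaining line of the same telomere length is then set against the mean of both lines of the other length. Cre is therefore no longer balanced in these fits. Without the 4 mock/cre+ arrays, 4 of the 10 genes stayed called lower: TRIB3 (-0.81), CEBPB (-0.57, adjusted p = 0.00846), DDIT3 (-0.54, adjusted p = 0.0130) and SESN2 (-0.28, adjusted p = 0.0109). Without the 4 LhTERTL arrays 8 genes were called lower, ATF3 (-0.28, adjusted p = 0.0247) and ASNS (-0.26, adjusted p = 0.0337) among them, without the 4 mock arrays 7, and without the 4 LhTERTL/cre+ arrays 6. The ATF3 value without LhTERTL sets LhTERTL/cre+ against mock and mock/cre+ together, so it includes a difference in Cre. Within the matched telomere pairs ATF3 gave -0.05 and -0.06, and between lines with and without Cre it gave -0.45 and -0.44. TRIB3, CEBPB, DDIT3 and SESN2 were the genes called lower whichever line was left out. With each line taken as 1 value, 2 lines against 2, limma called 0 members after adjustment and 4 at an unadjusted p under 0.05: TRIB3, CEBPB, DDIT3 and SESN2. How many of all genes were called in each of these fits was not counted, so these counts stand without a background.

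By the order of line means, ATF4, XBP1, DDIT3, CEBPB, CHAC1, ASNS, SESN2 and HERPUD1 were highest in mock/cre+, with means of 0.47 ± 0.08, 0.48 ± 0.13, 0.43 ± 0.09, 0.51 ± 0.04, 0.25 ± 0.18, 0.14 ± 0.20, 0.12 ± 0.07 and 0.01 ± 0.13 (SD, n = 4). TRIB3 and ATF3 were highest in mock, at 0.45 ± 0.19 and 0.19 ± 0.09. The lowest line was LhTERTL/cre+ for all but DDIT3 and XBP1, which were lowest in LhTERTL at -0.55 ± 0.08 and -0.21 ± 0.12. Neighbours in this order were often within their spread: SESN2 in mock/cre+ and mock (0.12 and 0.10), CEBPB in LhTERTL/cre+ and LhTERTL (-0.44 ± 0.40 and -0.43 ± 0.14) and ATF3 in LhTERTL/cre+ and mock/cre+ (-0.31 ± 0.21 and -0.25 ± 0.08).

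The 10 genes differed in how closely they followed each other across the tumours. Over their 45 pairs, Pearson's r across the 16 arrays had a median of 0.46 and ran from -0.51 for ATF3 with XBP1 up to 0.97 for DDIT3 with CEBPB; 9 pairs were over 0.8 and 4 below 0. With line means removed the median was 0.39. Over all measured genes, the 5 most like ATF4 across the 16 arrays were ZNF704 (r 0.97), GBA2, a glucosylceramidase, SDC4, a cell surface proteoglycan, CREB3L1, an ER-bound transcription factor, and ARFGEF3, all at 0.96, with 0.73 to 0.83 after line means were removed. Those most like DDIT3 were FHIP1B (0.97), CEBPB, SLC38A7, an amino acid transporter, SDAD1 and SLC22A5, a carnitine transporter (0.96 each of the last 3). Those most like XBP1 were STIM2, an ER calcium sensor (0.97), ATP9A, GCN1, which activates the eIF2 kinase GCN2, ZHX2 and CBR4 (0.97 each). These values describe likeness over 16 arrays of 4 lines.

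The wider pathway went both ways. Of 115 pathway genes in 7 lists (123 entries, since some genes are in several), 22 were higher and 30 lower in long- than in short-telomere tumours, or 17 and 14 in LhTERTL against mock and 17 and 36 in LhTERTL/cre+ against mock/cre+, with median log2 differences of -0.01, 0.05 and -0.04. Over all genes the shares called higher and lower were 18.5% and 14.1%, 12.3% and 7.99%, and 15% and 13% in the same 3 comparisons, and the shares of 18.5% and 14.1% also stand against each list count over both pairs that follows. TRIB3 and CHAC1 are among these genes, and the lists were drawn up with earlier results of the same data known. Over both pairs, lower calls fell in all 7 lists and higher calls in all but the ER sensors.

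The eIF2 kinases upstream of ATF4 went different ways. EIF2AK2, the kinase PKR that responds to double-stranded RNA and interferon, fell by 0.79 in LhTERTL against mock (adjusted p = 1.11e-05) and by 0.80 in LhTERTL/cre+ against mock/cre+ (adjusted p = 5.23e-06). EIF2AK1, the haem-regulated kinase HRI, rose by 0.30 (adjusted p = 0.00462) and 0.40 (adjusted p = 0.000268). EIF2AK3, which encodes PERK, passed in neither, at 0.12 (adjusted p = 0.424) and -0.21 (adjusted p = 0.0954). EIF2B3, a subunit of the eIF2 exchange factor, rose by 0.70 and 0.74. Of the 18 genes of that list, 5 were higher and 5 lower over both pairs.

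Of 10 ER stress sensors and their processing genes, 3 were lower over both pairs and none higher, beside 14.1% and 18.5% of all genes. ERN1, the sensor IRE1 that splices XBP1, fell by 0.48 in LhTERTL against mock (adjusted p = 0.00121) and by 0.49 in LhTERTL/cre+ against mock/cre+ (adjusted p = 0.000621). ATF6, the sensor cut in the Golgi, fell by 0.48 in the Cre pair (adjusted p = 5.67e-05) and gave -0.16 in the other (adjusted p = 0.108). CREB3L1 fell by 1.36 in the Cre pair (adjusted p = 1.42e-06) and gave 0.08 in the other (adjusted p = 0.755); without the 4 mock/cre+ arrays its long minus short difference was -0.02 (adjusted p = 0.940), beside -0.64 with them. As with ATF4 and XBP1, mock/cre+ was the line that stood apart, at 1.24 above mock (adjusted p = 9.67e-06).

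ER chaperones and targets of XBP1 or ATF6 gave 4 higher and 6 lower of 26 over both pairs, beside 18.5% and 14.1% of all genes. The Cre pair gave 1 higher and 9 lower, beside 15% and 13% of all genes. LhTERTL against mock gave 2 higher and 1 lower, beside 12.3% and 7.99%. HSPA5, the chaperone BiP that holds the sensors inactive, fell by 0.67 in LhTERTL/cre+ against mock/cre+ (adjusted p = 0.00117), with -0.31 in LhTERTL against mock (adjusted p = 0.124). HSP90B1, the chaperone GRP94, fell by 0.50 in LhTERTL against mock (adjusted p = 0.00806) and gave -0.22 in the Cre pair (adjusted p = 0.221). SSR1 rose by 0.39 in LhTERTL against mock (adjusted p = 0.000888) and SDF2L1 by 0.43 (adjusted p = 0.0103). In the Cre pair SSR1 gave -0.10 (adjusted p = 0.330) and SDF2L1 0.22 (adjusted p = 0.168). SEC24D, a coat protein of vesicles that leave the ER, fell by 0.56 in the Cre pair (adjusted p = 0.000483), but long minus short was 0.02 without mock/cre+ (adjusted p = 0.901).

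Of the 29 amino acid and other ATF4 targets, 8 were higher and 4 lower over both pairs, beside 18.5% and 14.1% of all genes. The counts were 8 and 1 in LhTERTL against mock, beside 12.3% and 7.99% of all genes. They were 5 and 7 in LhTERTL/cre+ against mock/cre+, beside 15% and 13%. PSPH, the last enzyme of serine synthesis, rose by 1.05 in LhTERTL against mock (adjusted p = 1.79e-06) and gave 0.20 in the Cre pair (adjusted p = 0.147). GPT2, a mitochondrial alanine aminotransferase, rose by 0.44 in the first (adjusted p = 0.000588). SHMT2, a mitochondrial enzyme of serine use, fell by 0.46 in the Cre pair (adjusted p = 0.000494), and DDIT4, an inhibitor of mTORC1, by 0.92 (adjusted p = 0.000344). GDF15, a secreted stress cytokine, rose by 0.54 in LhTERTL against mock (adjusted p = 0.00781) and fell by 0.59 in LhTERTL/cre+ against mock/cre+ (adjusted p = 0.00263).

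Among 8 CHOP targets 1 was higher and 3 lower over both pairs. PPP1R15A, the GADD34 protein that lets eIF2 be dephosphorylated, rose by 0.25 (adjusted p = 0.00217). BCL2L11, the death factor BIM, fell by 0.20 (adjusted p = 0.00783) and TNFRSF10B, a receptor for the death ligand TRAIL, by 0.13 (adjusted p = 0.0440), beside TRIB3. BBC3, the death factor PUMA, gave 0.00 (adjusted p = 0.995). In LhTERTL against mock, TNFRSF10B gave -0.19 (adjusted p = 0.0430), BCL2L11 -0.08 (adjusted p = 0.523) and PPP1R15A 0.11 (adjusted p = 0.398). In LhTERTL/cre+ against mock/cre+ they gave -0.06 (adjusted p = 0.587), -0.32 (adjusted p = 0.00436) and 0.38 (adjusted p = 0.00127). ERO1A fell by 0.30 in the first pair (adjusted p = 0.0148) and rose by 0.45 in the second (adjusted p = 0.000522).

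Of 25 bZIP partners and relatives 4 were higher and 7 lower over both pairs. BATF2 fell by 0.65 (adjusted p = 2.62e-07), JUNB, an AP-1 subunit, by 0.80 (adjusted p = 8.86e-06) and CEBPD, the delta member of the C/EBP family, by 0.59 (adjusted p = 0.000302). BATF2 and JUNB were called lower in both pairs. CEBPD gave -0.29 in LhTERTL against mock (adjusted p = 0.194) and -0.89 in LhTERTL/cre+ against mock/cre+ (adjusted p = 0.000244). MAFK, a small MAF partner, rose by 0.27 (adjusted p = 0.000182). Among the 7 relatives of the effectors, CHAC2 rose by 0.77 (adjusted p = 0.000154) and SESN1 by 0.43 (adjusted p = 8.05e-05), the opposite sign to SESN2, and TRIB2 (-0.49, adjusted p = 0.00115) and TRIB1 (-0.18, adjusted p = 0.00811) fell. Unlike TRIB3, each was called in 1 pair: TRIB2 gave -0.09 in LhTERTL against mock (adjusted p = 0.743) and -0.89 in LhTERTL/cre+ against mock/cre+ (adjusted p = 0.000182), and TRIB1 gave -0.28 (adjusted p = 0.00802) and -0.08 (adjusted p = 0.440).

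**Figure D4:**
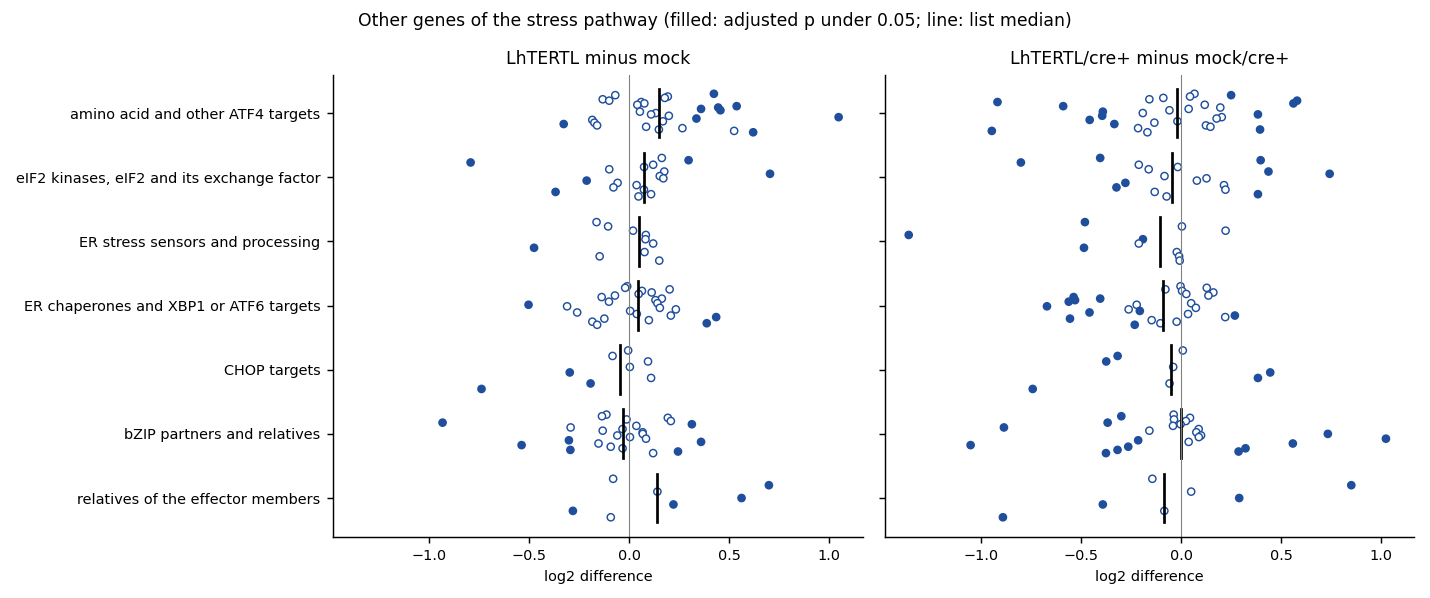
Log2 difference (x axis) of each pathway gene, by list (y axis), in LhTERTL minus mock on the left and LhTERTL/cre+ minus mock/cre+ on the right, with filled points where the adjusted p was under 0.05 and a black line at the list median. Calls lie on both sides of 0 in most lists, with 17 higher and 14 lower on the left and 17 higher and 36 lower on the right when each gene is counted once.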

How the data were processed

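Each tumour's total RNA was labelled from 100 ng and read on 1 Affymetrix array. The authors deposited log2 signals from RMA, per the submitters' processing notes; platform and version are not given in the sources used here. The deposited values have each probe set's own median subtracted (largest remaining median 5e-07), which the labels do not state. There were 54675 probe sets: 41476 with exactly 1 gene name, 961 with several, 12176 with none and 62 controls. Probe sets of 1 gene were averaged, giving 20282 genes, of which 19252 matched RefSeq. limma 3.58.1 (R 4.3.3) was fitted to all 16 arrays with 1 mean per line, empirical Bayes variances and p-values adjusted by Benjamini-Hochberg across all genes. Brightness has no value here, so no filter on dim genes was possible, and 4 arrays per group limit the precision. Array controls were compared by exact permutation (scipy). The 10 genes and the lists were chosen with earlier results of these data known. All 10 are reported. Of each list, up to 4 genes with the smallest adjusted p in a contrast are named (any gene of lists of 10 or fewer), and the 5 genes most correlated with ATF4, DDIT3 and XBP1. Alternatives were other gene values, normalisations, variance models, thresholds, covariates, blocks and left-out arrays or lines. Marker gene FCGR3A was not measured.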

Additional observations from a re-analysis of the deposited data

Results flagged for a closer look

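Among the values of the 10 genes in the 4 lines, 40 groups of 4 tumours, 1 tumour lay far from the other 3 of its line: SESN2 in LhTERTL/cre+ 4, at -0.0048, where the gap to the nearest tumour was 0.84 of the whole range. Chance flags about 1 in 20 such groups. In the poly-A controls, added before labelling, mock 3 (1.23), LhTERTL 3 (1.69) and LhTERTL/cre+ 1 (1.84) lay as far from the other arrays of their lines.

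The difference between the telomere contrasts, LhTERTL/cre+ minus mock/cre+ less LhTERTL minus mock, passed the test for ATF4 (-0.51), XBP1 (-0.39), ASNS (-0.41) and CHAC1 (-0.47).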

How the results depend on the processing

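Counts of members called lower or higher are given under each alternative that moved them by more than 1.5 times; smaller shifts are left out, but for the 8 members in LhTERTL/cre+ minus mock/cre+, 6 with the 3′ to 5′ ratio as a covariate. For long minus short telomeres the 6 members called became 0 with line means, 3 where at least a 1.5-fold change was also asked, and 6 to 7 with 1 array left out at a time. For LhTERTL minus mock the 3 became 1 under the 1.5-fold limit and 1 within the 11 arrays of low poly-A spike signal (3 to 4 with 1 array left out). For LhTERTL/cre+ minus mock/cre+ the 8 became 3 under the 1.5-fold limit and stayed 8 with each array left out. For mock/cre+ minus mock the 4 became 2 with the 3′ to 5′ ratio as a covariate and 0 under the 1.5-fold limit (3 to 6 with 1 array left out). For LhTERTL/cre+ minus LhTERTL the 1 became 0 without variance moderation, with the 8 arrays alone, under the 1.5-fold limit, at an adjusted p under 0.01 and within the 11 arrays, and 2 without LhTERTL/cre+ 4 and with the covariate (0 to 2 with 1 array left out). For the difference between the telomere contrasts the 4 became 2 with the median probe set, the most variable probe set, a second quantile normalisation, arrays centred on their median, no moderation, the spike class as a block, the 11 arrays or every probe set tested on its own (a member counted if 1 was called), 1 with the covariate or at 0.01, and 0 under the 1.5-fold limit (1 to 7 with 1 array left out). Of 2096 values of single members, 1903 kept direction and side of the limit, 109 lost and 25 gained the call, and 58, called neither before nor after, turned sign. Part of the 1903 could not have come out otherwise. The second deposited table held the same values, and a stricter limit can neither turn a sign nor add a call. Of called values, signs turned in SEC24D, long minus short without mock/cre+ (0.023), and in ATF3 by probe set 1554420_at, LhTERTL/cre+ minus LhTERTL (0.15). The causes of these changes were not tested, and the share of all genes called under each alternative is not given here. The 11 arrays, the covariate without LhTERTL/cre+ 4 and leaving out each other line were chosen after seeing the data.

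With a replicate block the counts were 6, 3, 8, 4, 1 and 3 (fixed) or 4 (random) for the 6 comparisons in the order above. Whether equal numbers pair tumours could not be settled from the values. Arrays of equal number correlated at -0.33 to 0.37 after line means were removed, 9 of 24 pairs over 0.1. For 5 of 16 arrays the closest number was their own. Among arrays of high poly-A signal, mock 3 and LhTERTL 3 share a number, as do mock/cre+ 1 and LhTERTL/cre+ 1, while mock/cre+ 4 shares its number with none of them. The deposited second table held the same values. Centred values limit the results to differences between tumours, and dim probe sets could not be set aside.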
